A study of Homo sapiens with 20 samples.

Results

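The immunoproteasome subunits PSMB8, PSMB9 and PSMB10 and the PA28 activator subunits PSME1 and PSME2 were followed through RNA sequencing of proteasome inhibitor-resistant and parental plasma cell and B-cell lines. The 5 genes were taken by symbol from the 18305 genes of the deposited table, and all 5 were among the 13089 genes that entered the tests. The data comprised 20 libraries in 10 groups, with 2 biological replicates per group. AMO1, L363 and RPMI (the RPMI-8226 line) are multiple myeloma lines, and ARH77 is a B-lymphoblastoid line. Each of the 4 lines was sequenced as parental cells (WT) and as bortezomib-resistant cells (BtzR), and carfilzomib-resistant cells (CfzR) were added for AMO1 and L363. The resistant lines had been evolved under drug and were kept in 90 nM of that drug, so the presence of drug and the resistant state cannot be told apart. All groups shared the RPMI-1640 medium with serum, glutamine and antibiotics. The labels name 1 resistant line per drug and parental line, and an independently evolved line was not analysed here.

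The proteasome degrades ubiquitin-tagged proteins in a barrel whose inner rings carry 3 kinds of catalytic subunit. Under interferon-gamma, and without it in many lymphoid cells, immunosubunits replace the constitutive catalytic subunits. PSMB8 (LMP7) takes the place of PSMB5, PSMB9 (LMP2) that of PSMB6, and PSMB10 (MECL-1) that of PSMB7. The exchange favours peptides that fit HLA class I molecules. PSME1 and PSME2 encode the alpha and beta subunits of PA28, an interferon-inducible ring that caps the barrel and opens it without ATP. Bortezomib and carfilzomib bind the chymotrypsin-like site, which is PSMB5 in the constitutive and PSMB8 in the immunoproteasome.

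PSMB8 and PSMB9 lie on chromosome 6, in the class II part of the major histocompatibility complex, in the gene order TAP2, PSMB8, TAP1, PSMB9. PSME1 and PSME2 lie on chromosome 14 with 1 gene, EMC9, between them, and PSMB10 lies on chromosome 16. A promoter window of 300 bases, from 250 bases before to 50 bases after an annotated start (RefSeq, GRCh38.p14), was available for each gene, with a second window for PSMB8. The core of the interferon-stimulated response element, GAAANNGAAA, is the letter pattern read by interferon regulatory factors. It occurred on either strand in windows of 4 of the 5 genes (PSMB8, PSMB10, PSME1 and PSME2). Over all 27305 genes with a window, 4.38% had it. Counted by window, the share was 3.57% of all 35116 promoter windows. The 30-base stretches that hold it are shown because the same 10 letters recur in all 4 genes. Capitals mark every match to the pattern, and each stretch is read 5′ to 3′ on the strand that shows it.
PSMB8, chr6:32844032-32844061, plus strand: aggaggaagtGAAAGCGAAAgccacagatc
PSMB10, chr16:67936852-67936881, minus strand: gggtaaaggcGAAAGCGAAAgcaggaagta
PSME1, chr14:24136189-24136218, minus strand: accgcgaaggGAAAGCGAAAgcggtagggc
PSME2, chr14:24146619-24146648, minus strand: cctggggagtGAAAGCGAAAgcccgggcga
TAP1, chr6:32853816-32853845, plus strand: tttagggGAAAGCGAAATCGAAAgcggccg
The window of PSMB9 and the other PSMB8 window held no match. PSMB9 is transcribed away from TAP1, the peptide transporter gene next to it, and their annotated starts are 488 bases apart. The TAP1 stretch, which holds 2 overlapping matches, lies between those starts. The match in PSMB8 spanned the start site and that in PSME1 lay just after it, while those in PSME2 and PSMB10 lay just before it. None of the windows of the constitutive counterparts PSMB5, PSMB6 and PSMB7 held this pattern. The gamma-activated site TTCNNNGAA was found in 1 of the 5 genes, PSMB8, and also in PSMB5 and TAP1. It occurred in 7.66% of all windows and 9.38% of all genes with a window. The NF-kappaB core GGGNNNNNCC was found in PSME1 and PSME2, and also in PSMB5 and TAP1. However, it occurred in 58.7% of all windows and 61.7% of all genes with a window. These are letter matches, and binding was not measured.

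Expression was given as FPKM (fragments counted per length of transcript and per library size), which corrects for transcript length, so levels can be set side by side between genes. The summed FPKM per library ranged from 457317 to 494850, and 10455 to 11023 genes reached 1 FPKM; the numbers of reads are unknown. All 6 plasma cell markers examined (SDC1, TNFRSF17, CD38, PRDM1, XBP1 and IRF4) reached 1 FPKM in every myeloma group, and all 5 B-cell markers summed here (MS4A1, CD22, PAX5, CD79A and CR2) did so in both ARH77 groups. Summed B-cell marker levels were 511 to 708 FPKM in ARH77 libraries and at most 7.07 FPKM in myeloma libraries. Plasma cell markers reached 1 FPKM in ARH77 too, all 6 in WT and 5 in BtzR. Their sums were 218 to 227 FPKM in ARH77 libraries and at least 506 FPKM in myeloma libraries. The 2 libraries labelled AMO1 CfzR went against their label: across genes, they correlated at r = 0.986 to 0.992 with the L363 libraries and at 0.878 to 0.883 with the other AMO1 libraries. Results that use them are therefore given against both parental lines.

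All 5 transcripts were detected in every library, and the lowest value was 8.26 FPKM, for PSMB9 in RPMI BtzR. Averaged over the 20 libraries, PSME2 stood at 239 FPKM, above 98.1% of tested genes, PSME1 at 127 FPKM, PSMB10 at 56.8 FPKM, PSMB8 at 43.5 FPKM and PSMB9 at 25.4 FPKM, the last still above 76.2% of tested genes. On the same average the constitutive counterparts were higher, at 90.4 FPKM for PSMB5, 86.0 FPKM for PSMB6 and 170 FPKM for PSMB7. PSMB8 overlaps the antisense gene PSMB8-AS1 and PSME2 has 6 named pseudogenes, and how far their reads entered these levels was not tested. For each of the 5 genes the RPMI BtzR group had the lowest mean of the 10 groups. The group with the highest mean differed from gene to gene: AMO1 WT for PSMB8, AMO1 BtzR for PSMB9, ARH77 BtzR for PSMB10, L363 WT for PSME1 and the labelled AMO1 CfzR for PSME2. The highest mean exceeded the lowest by 5.28-fold for PSMB9 and by 2.52-fold to 2.62-fold for the other 4 genes.

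**Figure D1:**
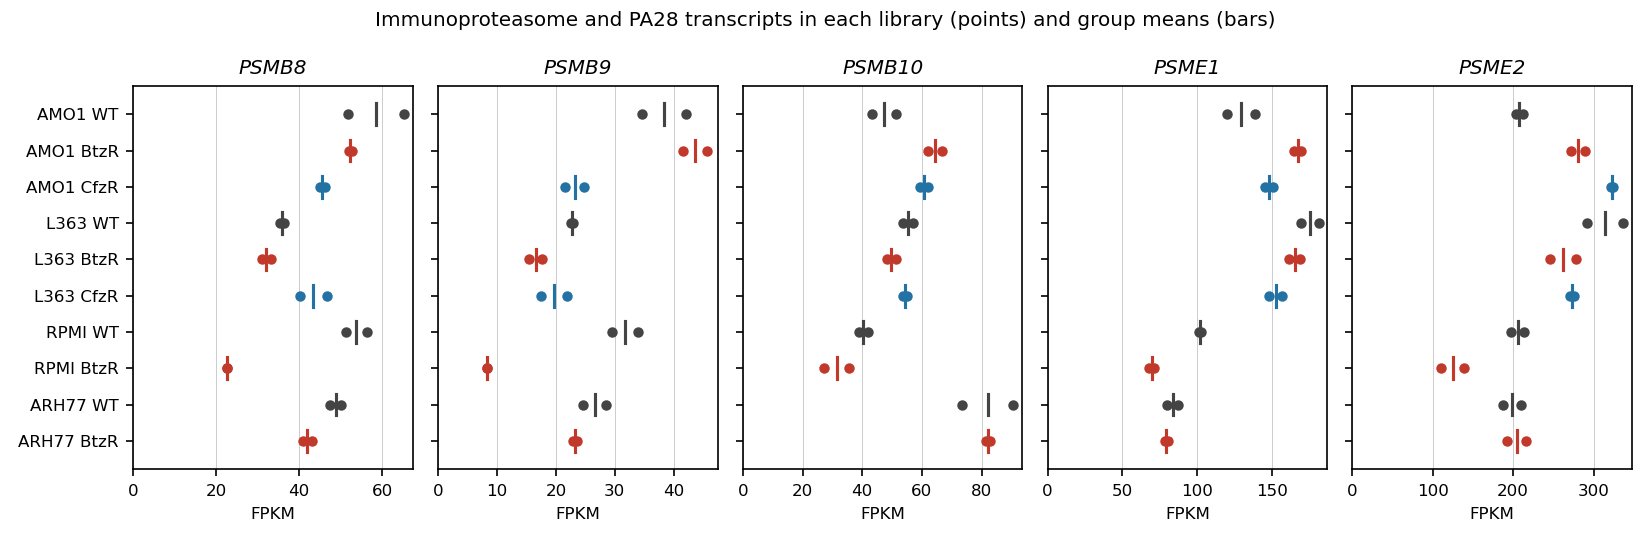
FPKM (linear axes from 0) of the 5 genes in each of the 20 libraries, 1 row per group; points are libraries, short vertical bars are group means, and grey, red and blue mark WT, BtzR and CfzR. RPMI BtzR has the lowest mean in every panel, with PSMB9 at 8.26 FPKM in both libraries.

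In the order of group means, many neighbours could not be separated by their libraries. Of the 9 pairs of adjacent groups, the libraries overlapped in 4 for PSMB8, 4 for PSMB9, 3 for PSMB10, 3 for PSME1 and 6 for PSME2. For PSMB8 the order ran from AMO1 WT (51.85 and 65.28 FPKM) through RPMI WT (51.28 and 56.27) and AMO1 BtzR (52.06 and 52.71), which overlapped, to ARH77 WT (47.49 and 50.12). The labelled AMO1 CfzR, L363 CfzR and ARH77 BtzR libraries followed between 40.2 and 46.6 FPKM, and L363 WT, L363 BtzR and RPMI BtzR formed the lower end, each apart from the next. For PSME2 the 4 groups AMO1 WT, RPMI WT, ARH77 BtzR and ARH77 WT overlapped in sequence between 187 and 216 FPKM. Replicates differed by a median of 0.08 (PSMB8), 0.19 (PSMB9), 0.09 (PSMB10), 0.06 (PSME1) and 0.14 (PSME2) on the log2(FPKM + 1) scale.

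The parental lines already differed. PSMB10 was higher in ARH77 WT, at 90.52 and 73.58 FPKM, than in AMO1 WT (43.19 and 51.22), L363 WT (56.98 and 53.52) and RPMI WT (41.80 and 38.95), without overlap. Against the mean of the 3 myeloma parental lines its log2 fold change was 0.78 ± 0.097 (SE), with an adjusted p of 3.99e-06. The SE and p in this comparison rest on replicates within groups and do not measure the spread between lines. PSME1 was lower in ARH77 WT, at 79.56 and 87.50 FPKM, than in all 6 myeloma parental libraries, which ranged from 101 to 181 FPKM (-0.66 ± 0.063, adjusted p = 2.29e-07). PSME2 was lower by a small margin (-0.26 ± 0.089, adjusted p = 0.0176), and its ARH77 WT libraries overlapped those of AMO1 WT and RPMI WT. That call was lost with quantile normalization (-0.13, adjusted p = 0.0998) and without ARH77 WT replicate 2 (-0.18, adjusted p = 0.188). The difference in PSMB8 was 0.02 (95% confidence interval -0.16 to 0.19) and that in PSMB9 was -0.18 (-0.40 to 0.04), and neither passed the test, although PSMB9 did with quantile normalization (-0.27, adjusted p = 0.0251). Thus 1 of 5 was higher and 2 of 5 lower, where 38.9% and 34.2% of all tested genes were, and none passed the additional requirement of a 2-fold change that 22.3% of genes met.

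Bortezomib-resistant RPMI cells had less of all 5 transcripts than their parental cells. The fall was steepest for the 2 immunosubunits encoded beside the TAP genes. PSMB9 was at 29.49 and 33.89 FPKM in RPMI WT and at 8.26 FPKM in both RPMI BtzR libraries, a 3.84-fold lower mean. Its log2 fold change was -1.82 ± 0.12 (SE), with an adjusted p of 1.12e-08. PSMB8, the immunoproteasome subunit that bortezomib binds, was at 56.27 and 51.28 FPKM in RPMI WT and at 22.59 and 22.69 FPKM in RPMI BtzR, a 2.38-fold lower mean (-1.21 ± 0.098, adjusted p = 8.27e-08). The libraries of the 2 groups lay far apart for both genes.

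The PA28 subunits fell less. PSME2 went from 213.55 and 197.50 FPKM in RPMI WT to 138.73 and 110.79 FPKM in RPMI BtzR (-0.72 ± 0.11, adjusted p = 5.77e-05). PSME1 went from 101.45 and 102.42 FPKM to 67.94 and 71.16 FPKM (-0.55 ± 0.077, adjusted p = 3.02e-05). Both ranges were apart. PSMB10, the immunosubunit encoded on chromosome 16, changed least, from 41.80 and 38.95 FPKM to 35.54 and 27.28 FPKM (-0.36 ± 0.12, adjusted p = 0.0183). That last call was not stable. It was lost in a fit of the compared libraries alone (-0.36, adjusted p = 0.0923), without RPMI BtzR replicate 2 (-0.18, adjusted p = 0.24) and without RPMI WT replicate 1 (-0.31, adjusted p = 0.109).

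In this comparison 5 of 5 genes were lower at an adjusted p under 0.05, where 24.2% of all tested genes were, and 2 of 5 (PSMB8 and PSMB9) also fell at least 2-fold, where 7.92% did. The median of the 5 log2 fold changes was -0.72, beside 0.05 over all tested genes. In bulk RNA, fewer expressing cells and less RNA per cell cannot be told apart. The 6 plasma cell markers moved in different directions, and their sum (514 to 536 FPKM in RPMI WT, 506 to 525 FPKM in RPMI BtzR) hides this. Mean TNFRSF17 was 96.1 FPKM in RPMI WT and 6.39 FPKM in RPMI BtzR, and mean CD38 was 51.2 and 2.73 FPKM. XBP1 was at 247 and 334 FPKM, IRF4 at 63.4 and 100.3 FPKM, PRDM1 was higher in RPMI BtzR at 18.6 FPKM, and SDC1 was at 55.6 and 53.0 FPKM. Summed B-cell markers were low in both, at 6.73 to 7.07 FPKM in RPMI WT and 0.15 to 0.44 FPKM in RPMI BtzR, where MS4A1, PAX5, CD79A and CR2 were under 0.1 FPKM. Their part in the result was not tested.

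**Figure D2:**
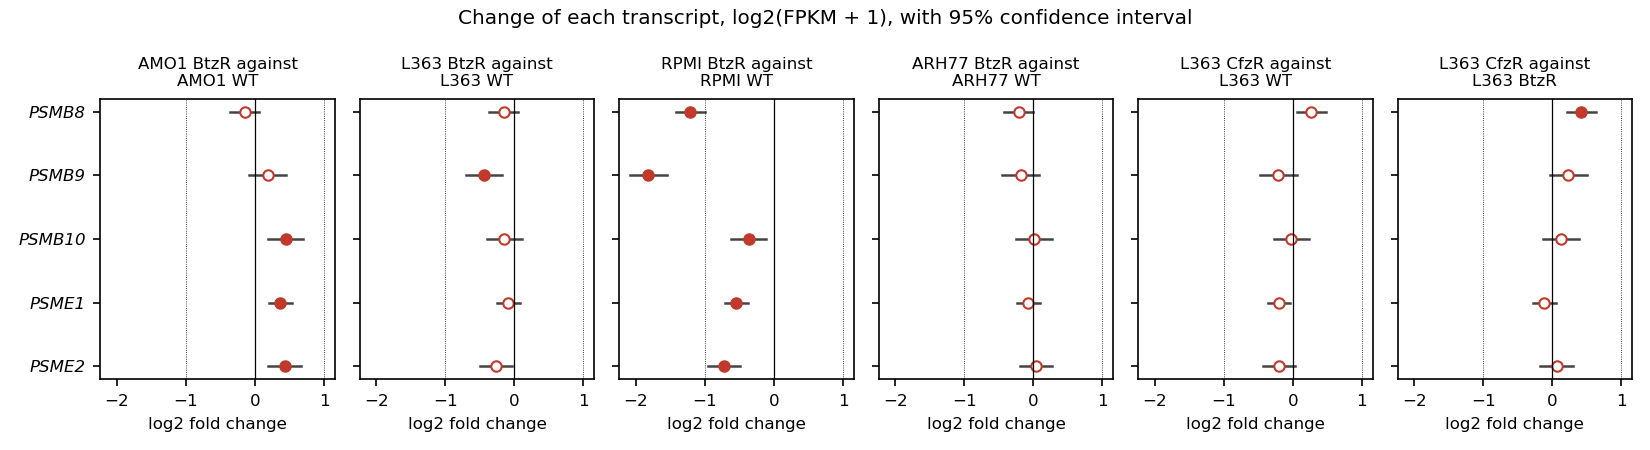
Log2 fold change of the 5 genes, on log2(FPKM + 1), in 6 comparisons; points are estimates, horizontal lines are 95% confidence intervals, filled points have an adjusted p under 0.05, and dotted lines mark a 2-fold change. All 5 genes are filled and left of 0 in RPMI BtzR, and PSMB10, PSME1 and PSME2 are filled and right of 0 in AMO1 BtzR.

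Bortezomib-resistant AMO1 cells moved the other way for 3 of the 5 genes. PSME1 rose from 120.12 and 138.92 FPKM in AMO1 WT to 164.91 and 169.63 FPKM in AMO1 BtzR (0.37 ± 0.077, adjusted p = 0.00106). PSME2 rose from 203.24 and 212.39 FPKM to 271.39 and 289.57 FPKM (0.43 ± 0.11, adjusted p = 0.00437). PSMB10 rose from 43.19 and 51.22 FPKM to 62.10 and 66.67 FPKM (0.44 ± 0.12, adjusted p = 0.00616). The 3 rises were of 1.29-fold to 1.36-fold in the group means, with no overlap between the libraries. The PSMB10 call was lost without AMO1 WT replicate 1 (0.32, adjusted p = 0.0794) and, narrowly, without AMO1 BtzR replicate 2 (0.39, adjusted p = 0.0501).

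The 2 immunosubunit genes on chromosome 6 did not pass the test in AMO1 BtzR. PSMB8 was at 51.85 and 65.28 FPKM in AMO1 WT and 52.06 and 52.71 FPKM in AMO1 BtzR (log2 difference -0.15, 95% confidence interval -0.36 to 0.06). Its call depended on the spread of the parental pair: without AMO1 WT replicate 1 the difference was -0.31 with an adjusted p of 0.0189. PSMB9 was at 34.58 and 42.07 FPKM and then 45.58 and 41.59 FPKM (0.19, -0.08 to 0.45). The share of higher calls, 3 of 5, compares with 25.6% of all tested genes, and 0 of 5 passed with the 2-fold requirement, where 9.18% did. The median of the 5 changes was 0.37, beside 0.00 over all tested genes. Summed plasma cell markers were lower in AMO1 BtzR, at 1577 to 1697 FPKM, than in AMO1 WT, at 3271 to 3595 FPKM, and most of that was SDC1, at a mean of 3075 FPKM in AMO1 WT and 1316 FPKM in AMO1 BtzR. CD38 (14.2 and 6.39 FPKM) and IRF4 (156 and 119 FPKM) were also lower, PRDM1 was higher (26.3 and 37.9 FPKM), and TNFRSF17 (91.6 and 85.1 FPKM) and XBP1 (70.7 and 73.0 FPKM) were close. The part of that change in these results was not tested.

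In bortezomib-resistant L363 cells, 1 of the 5 genes passed the test. Both L363 BtzR libraries lay below both parental libraries for all 5 genes, but how many of all tested genes did so was not counted. The summed FPKM was also lower in L363 BtzR (475584 and 462467) than in L363 WT (494850 and 482683). PSMB9 fell from 22.54 and 22.97 FPKM to 15.47 and 17.64 FPKM (-0.44 ± 0.12, adjusted p = 0.0341), where 5.52% of all tested genes were called lower. That call was lost when any 1 of the 4 libraries was left out, with adjusted p between 0.0638 and 0.244. PSMB8 was at 36.26 and 35.33 FPKM in L363 WT and 33.25 and 30.94 FPKM in L363 BtzR (-0.15, 95% confidence interval -0.36 to 0.06). PSME2 was at 336.63 and 292.32 FPKM and then 278.17 and 245.55 FPKM (-0.26, -0.50 to -0.03, adjusted p = 0.156). PSMB10 differed by -0.15 (-0.40 to 0.11) and PSME1 by -0.09 (-0.25 to 0.08). None of the 5 passed with the 2-fold requirement, where 2.06% of genes did.

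In bortezomib-resistant ARH77 cells, no member passed the test by limma. The log2 differences were -0.21 for PSMB8 (95% confidence interval -0.42 to -0.00), -0.18 for PSMB9 (-0.45 to 0.08), 0.01 for PSMB10 (-0.25 to 0.26), -0.07 for PSME1 (-0.24 to 0.10) and 0.04 for PSME2 (-0.19 to 0.28). PSMB8 was at 47.49 and 50.12 FPKM in ARH77 WT and 43.10 and 40.83 FPKM in ARH77 BtzR, apart but by a small margin. It was the 1 gene of the 5 with an unadjusted p under 0.05. Among all tested genes, 13.6% passed at the adjusted p alone and 1.60% with the 2-fold requirement.

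Averaged over the 4 lines with equal weight, PSMB8 (-0.43 ± 0.049, adjusted p = 4.62e-06) and PSMB9 (-0.56 ± 0.062, adjusted p = 3.31e-06) were lower by limma in these bortezomib-resistant cells. This was 2 of 5 genes, where 26.8% of tested genes were lower, and 0 of 5 met the 2-fold requirement, where 1.70% did. The errors and p-values rest on replicates within groups. They do not measure the spread between lines and do not reach beyond these 4 lines. PSMB8 was lower in 4 of 4 lines and PSMB9 in 3 of 4, but the RPMI line supplied most of both averages. Within single lines, PSMB8 passed the test in RPMI alone, and PSMB9 in RPMI and, less stably, in L363. In AMO1 the PSMB8 change was 0.015 without AMO1 WT replicate 2. How many of all tested genes shared such directions was not counted. PSMB10 averaged -0.01 (95% confidence interval -0.14 to 0.11), PSME1 -0.08 (adjusted p = 0.0856) and PSME2 -0.13 (adjusted p = 0.0629). The last 2 lay near the threshold and passed under some alternatives. A moderated F test of whether the 4 within-line changes were equal gave an adjusted p of 1.90e-05 for PSMB8, 9.57e-07 for PSMB9, 0.0042 for PSMB10, 4.48e-05 for PSME1 and 9.91e-05 for PSME2. All 5 thus differed between lines, as did 71.1% of all tested genes.

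Carfilzomib resistance could be read within 1 line, L363. Against L363 WT, no member passed the test by limma, where 8.47% of all tested genes passed at the adjusted p alone and 1.93% with the 2-fold requirement. PSMB8 was at 40.17 and 46.63 FPKM in L363 CfzR, above both L363 WT libraries (0.27, 95% confidence interval 0.06 to 0.48, adjusted p = 0.131). PSME1 was at 157.01 and 148.08 FPKM, below both (-0.20, -0.37 to -0.04, adjusted p = 0.151). These 2 genes had an unadjusted p under 0.05. PSMB9 differed by -0.21 (-0.47 to 0.06), PSMB10 by -0.02 (-0.28 to 0.23) and PSME2 by -0.20 (-0.44 to 0.03).

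The 2 drugs were compared at the same 90 nM in L363. Bortezomib is a reversible boronate and carfilzomib an irreversible epoxyketone. PSMB8 was higher in L363 CfzR than in L363 BtzR (0.42 ± 0.098, adjusted p = 0.0166), where 3.27% of all tested genes were called higher. The call was lost without either L363 BtzR library or without L363 CfzR replicate 2, with adjusted p between 0.051 and 0.208. The other 4 differences were 0.23 for PSMB9 (95% confidence interval -0.03 to 0.50), 0.13 for PSMB10 (-0.13 to 0.38), -0.11 for PSME1 (-0.28 to 0.05) and 0.06 for PSME2 (-0.17 to 0.30), and none passed. None of the 5 met the 2-fold requirement, where 1.47% of genes did.

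The libraries labelled AMO1 CfzR gave results that depended on the parental line set against them. Against AMO1 WT all 5 genes passed at the adjusted p alone, 3 higher and 2 lower, where 26.8% of tested genes were higher and 30.9% lower, and 0 of 5 met the 2-fold requirement, where 17.1% did. PSMB9 was at 21.52 and 24.85 FPKM (-0.70 ± 0.12, adjusted p = 2.16e-04) and PSME2 at 322.15 and 323.81 FPKM (0.63 ± 0.11, adjusted p = 1.66e-04). PSMB8 (-0.34, adjusted p = 0.0077), PSMB10 (0.36, adjusted p = 0.0178) and PSME1 (0.19, adjusted p = 0.0446) changed less, and each of these 3 calls was lost on leaving out at least 1 library. The PSME1 call was also lost with TPM scaling (adjusted p = 0.13), quantile normalization (0.311), no trend (0.0569) and the compared libraries alone (0.109). Against L363 WT, the line they resemble, no member passed by limma, where 6.92% of genes passed at the adjusted p alone and 1.66% with the 2-fold requirement. PSMB8 was then 0.34 higher (95% confidence interval 0.13 to 0.55, adjusted p = 0.0525) and PSME1 0.25 lower (log2 difference -0.25, -0.41 to -0.08, adjusted p = 0.0792), the 2 genes with an unadjusted p under 0.05. PSMB9 (0.02), PSMB10 (0.13) and PSME2 (0.04) had intervals that held 0.

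The immunosubunits were also read against the constitutive subunits that they replace. PSMB5, the constitutive subunit that both drugs bind, rose with bortezomib resistance in each line. It went from 54.67 and 52.33 FPKM in RPMI WT to 200.41 and 154.11 FPKM in RPMI BtzR (1.70 ± 0.18, adjusted p = 1.29e-06). In L363 it went from 60.08 and 53.01 FPKM to 192.25 and 187.39 FPKM (1.73 ± 0.18, adjusted p = 8.14e-06). The rise was smaller in AMO1 (0.88, adjusted p = 8.23e-04) and ARH77 (0.75, adjusted p = 0.0105). In L363 CfzR, PSMB5 was at 66.36 and 58.07 FPKM, and its difference of 0.14 from L363 WT did not pass (adjusted p = 0.835).

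The ratio of PSMB8 to PSMB5 was accordingly lower in bortezomib-resistant cells of all 4 lines. Ratios are listed on FPKM, and log2 changes of ratios were taken and tested on FPKM + 1. The ratio was 1.03 and 0.98 in RPMI WT and 0.113 and 0.147 in RPMI BtzR. In L363 it was 0.604 and 0.666 in WT, 0.173 and 0.165 in BtzR, and 0.605 and 0.803 in CfzR. In AMO1 it was 0.94 and 1.31 in WT and 0.57 and 0.509 in BtzR, and in ARH77 0.663 and 1.16 in WT and 0.43 and 0.46 in BtzR. In each of the 4 lines both resistant libraries were below both parental libraries. The mean within-line log2 change was -1.70, with an exact permutation p of 0.00154 (two-sided, labels permuted within lines), the smallest that the 1296 arrangements can give, and 0.00463 after adjustment over 3 ratios. Most of that change came from the denominator. Averaged over the lines, PSMB5 rose by 1.26 and PSMB8 fell by 0.43 on the log2 scale. As labels were permuted among replicate libraries within lines, the permutation p-values of the ratios do not measure the spread between lines. They do not reach beyond these 4 lines.

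The other 2 ratios did not pass. PSMB9 over PSMB6 changed by -0.64 on the log2 scale (exact permutation p = 0.0602, adjusted 0.0903), lower in 3 of 4 lines and higher in AMO1, where it rose by 0.72. The constitutive PSMB6 was lower in AMO1 BtzR than in AMO1 WT (-0.53, adjusted p = 0.00167) and higher in ARH77 BtzR than in ARH77 WT (0.79, adjusted p = 3.13e-04). In ARH77 the ratio changed by -0.97, where the difference in PSMB9 was -0.18 and did not pass. PSMB10 over PSMB7 changed by -0.16 (exact permutation p = 0.306), with a change of -0.94 in RPMI and between 0.02 and 0.25 in the other 3 lines. Summed over the 3 pairs, the immunosubunits made up 29.1% and 29.8% of catalytic subunit FPKM in RPMI WT and 10.8% and 10.9% in RPMI BtzR. The share was 29.16% and 29.99% in L363 WT, 20.2% and 20.4% in L363 BtzR, and 28.4% and 32.4% in L363 CfzR. In ARH77 it was 32.6% and 35.6% in WT and 28.5% and 29.7% in BtzR. AMO1 BtzR, at 28.2% and 28.1%, lay between the 2 AMO1 WT libraries, at 26.3% and 31.1%.

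**Figure D3:**
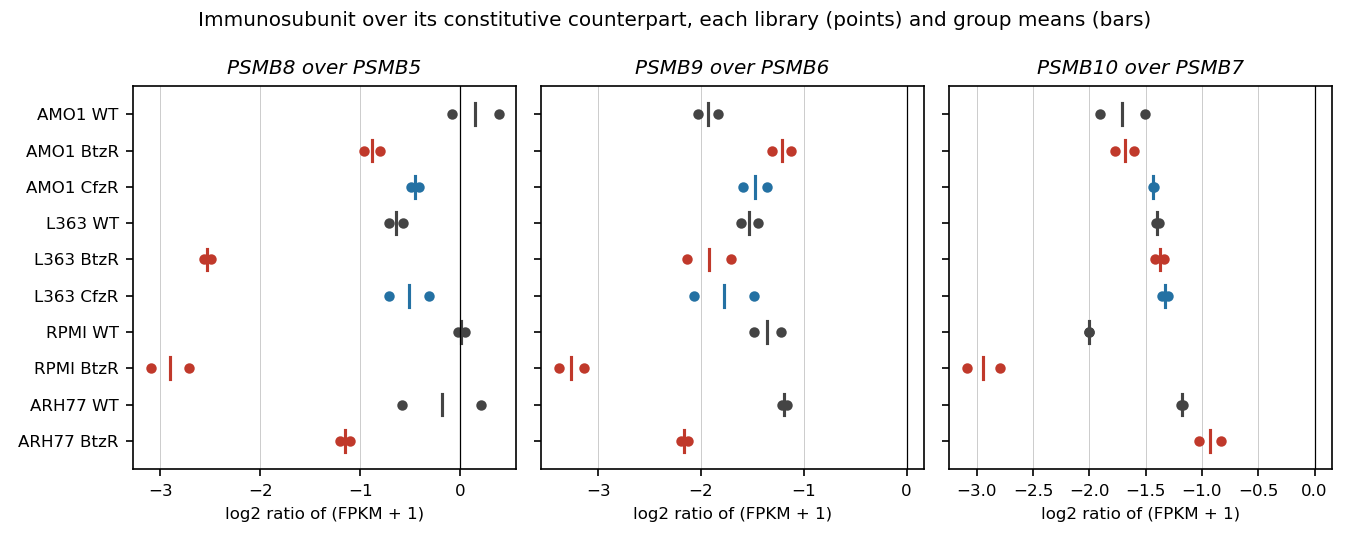
Log2 ratio of each immunosubunit to its constitutive counterpart, on FPKM + 1, in each of the 20 libraries; points are libraries, short vertical bars are group means, and grey, red and blue mark WT, BtzR and CfzR. PSMB8 over PSMB5 is lower in BtzR than in WT in all 4 lines, and L363 CfzR stays with L363 WT.

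Other proteasome genes were called in both directions in RPMI BtzR, where 30.2% of all tested genes were higher and 24.2% lower at the adjusted p alone. Of the 11 structural subunits of the 20S barrel, 3 were higher and 1 lower at the adjusted p alone, with a median log2 fold change of 0.14. Of the 18 subunits of the 19S cap, 3 were higher and 2 lower (median 0.05), with PSMC1 up by 1.00 and PSMC3, another ATPase of the cap, at -1.10. Of 8 other activators, inhibitors and assembly factors, 2 were higher and 2 lower (median -0.06). PSME3, which forms the PA28 gamma ring found in the nucleus, differed by -0.11 (adjusted p = 0.724), and the assembly factor POMP by 0.23 (adjusted p = 0.126).

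Genes of HLA class I peptide loading were mostly lower in the same cells. In RPMI BtzR, 10 of 14 were lower and 2 higher at the adjusted p alone, beside the same 24.2% and 30.2% of all tested genes, with a median of -0.52, beside 0.05 over all tested genes. One of them, the chaperone CALR, fell at least 2-fold (-1.02 ± 0.20, adjusted p = 4.96e-04). TAP2, the transporter subunit gene next to PSMB8, was at a mean of 52.1 FPKM in RPMI WT and 30.9 FPKM in RPMI BtzR (-0.74, adjusted p = 1.94e-05). TAP1, which stands between PSMB8 and PSMB9, was at means of 24.74 and 18.96 FPKM (-0.37, adjusted p = 0.0125). In AMO1 BtzR the same list had 4 higher and 3 lower (median 0.18), in L363 BtzR 0 higher and 3 lower (median -0.21), and in ARH77 BtzR 1 higher and 1 lower (median 0.07). Over all tested genes, 25.6% were higher and 25.6% lower in AMO1 BtzR, 5.66% and 5.52% in L363 BtzR, and 5.98% and 7.6% in ARH77 BtzR. TAP1 and TAP2 moved in opposite directions in AMO1 BtzR, at 0.62 (adjusted p = 3.57e-04) and -0.64 (adjusted p = 1.08e-04).

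**Figure D4:**
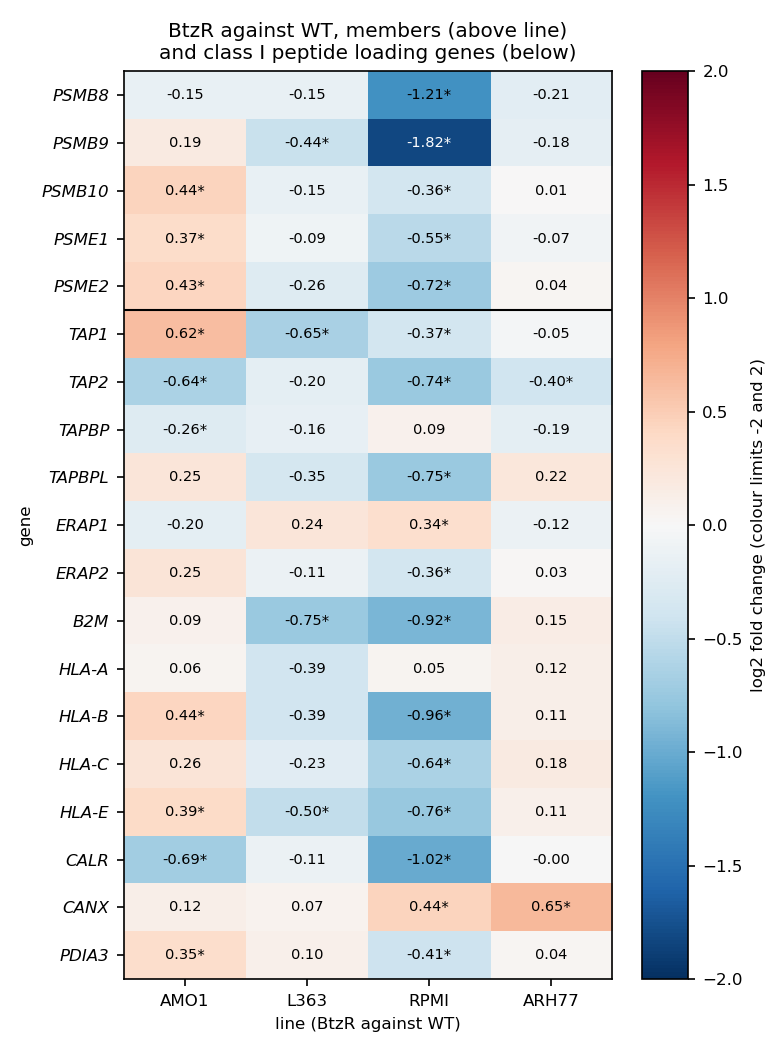
Log2 fold change, on log2(FPKM + 1), of the 5 members and 14 class I peptide loading genes in BtzR against WT of each line; blue is lower and red higher in BtzR, and an asterisk marks an adjusted p under 0.05. The RPMI column is blue for all 5 members and for most loading genes, whereas AMO1 is red for PSMB10, PSME1, PSME2 and TAP1.

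Regulators of interferon signalling and of class I genes differed between the lines too. In RPMI BtzR, 8 of 16 were lower and 0 higher (median -0.41; 24.2% and 30.2% of all tested genes), led by the type I interferon receptor chain IFNAR2 (-2.07 ± 0.18, adjusted p = 1.57e-07). In AMO1 BtzR, 6 were higher and 5 lower (median 0.09), beside 25.6% of all tested genes in each direction, and the interferon regulatory factor IRF9 (1.62 ± 0.17, adjusted p = 1.77e-06) and the feedback inhibitor SOCS1 (1.496 ± 0.19, adjusted p = 1.33e-05) rose at least 2-fold. In L363 BtzR 1 was higher and 1 lower, and in ARH77 BtzR 0 were higher and 2 lower, beside 5.66% and 5.52%, and 5.98% and 7.6%, of all tested genes. Interferon-induced genes outside the proteasome did not follow 1 direction. In RPMI BtzR 12 of 30 were lower and 3 higher, beside 24.2% and 30.2% of all tested genes, with the antiviral GTPase MX1 at -2.16 (adjusted p = 2.35e-06) and the membrane protein IFITM1 at 4.98 (adjusted p = 3.64e-09). In AMO1 BtzR 4 were higher and 5 lower, beside 25.6% each way, among them OAS2 at -3.14 (adjusted p = 1.02e-07). In L363 BtzR 12 were lower and 0 higher, beside 5.52% and 5.66%, including ISG15 at -2.004 (adjusted p = 0.00265), and in ARH77 BtzR 4 were higher and 0 lower, beside 5.98% and 7.6%.

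Across the 20 libraries, 2 pairs of the 5 transcripts varied together. PSMB8 and PSMB9 correlated at r = 0.92 on the log2 scale and PSME1 and PSME2 at r = 0.86, while the other 8 pairs ranged from 0.08 to 0.47. Without the 2 RPMI BtzR libraries, a choice made after seeing the data, r was 0.82 for both close pairs, and the other 8 pairs ranged from -0.43 to -0.06. The libraries share lines and replicates, so these are descriptions. Each close pair lies on 1 chromosome, with TAP1 between PSMB8 and PSMB9 and EMC9 between PSME1 and PSME2. Whether position has a part in these correlations was not tested.

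**Figure D5:**
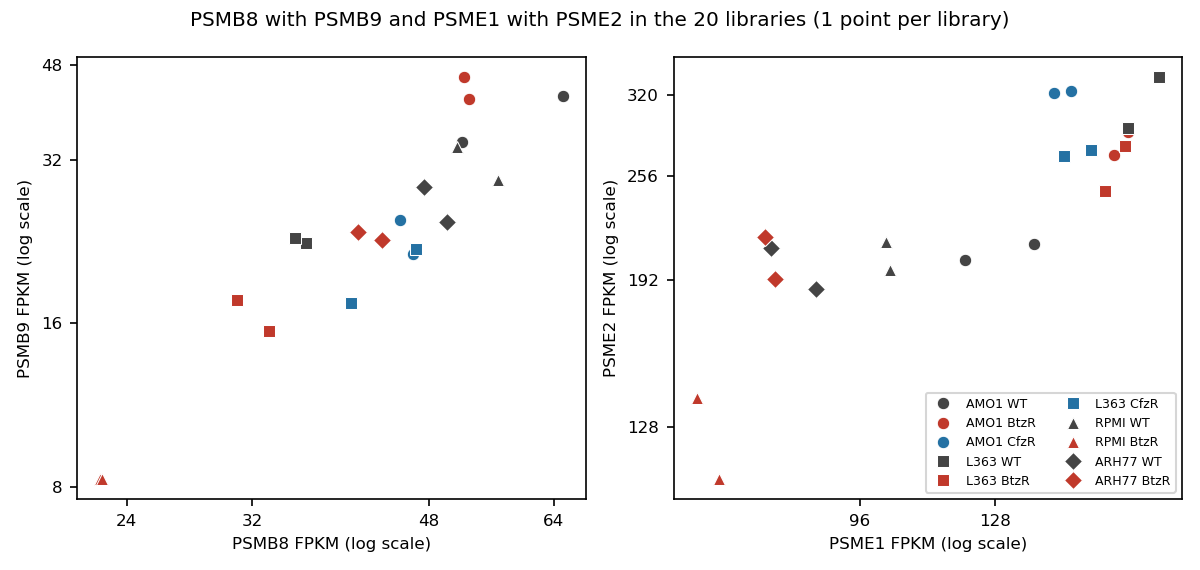
PSMB9 against PSMB8 (left) and PSME2 against PSME1 (right), FPKM on log axes, 1 point per library; shapes mark lines and colours WT (grey), BtzR (red) and CfzR (blue). RPMI BtzR lies at the lower left of both panels, and the ARH77 libraries have low PSME1 for their PSME2.

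The genes most like each member over the 20 libraries were named by Pearson's r on the log2 scale. For PSMB8 they were PSMB9, SLC9B2 (0.89), HSD17B7 (0.87), RAC2 (0.87) and NACA (0.86). For PSMB9 they were SLC9B2 (0.94), PSMB8, ATP2A3 (0.92), PABPC1L (0.91) and SUMO3 (0.91). For PSMB10 they were C19orf66 (0.95), XRCC1 (0.95), MTERF4 (0.94), LSM3 (0.94) and NOC3L (0.94). For PSME1 they included CAPRIN1, MAGEA6, NAP1L5 and DCC (0.96 to 0.97), and for PSME2 NDUFS3 (0.98), ELP4 (0.93), TRIM21 (0.93), XKR8 (0.93) and SCAMP5 (0.92). The points share lines, and a gene that differs between lines in the same order scores high.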

How the data were processed

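RNA from cell lines was sequenced on the BGISEQ-500 from flash-frozen pellets. The authors deposited gene-level FPKM values to 2 decimals for 20 libraries; the submitters' processing notes name HISAT2 2.0.4, Bowtie2 2.2.5 and RSEM 1.2.12. The genome build and the use of strand are not given in the sources used here, and read depth is unknown. Whether reads of PSMB8 were kept apart from those of the overlapping antisense gene PSMB8-AS1 is therefore unknown, and PSME2 has 6 named pseudogenes that could share its reads.

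FPKM values were tested as log2(FPKM + 1) with limma 3.58.1 (R 4.3.3; mean-variance trend, 1 mean per group, 20 libraries in 1 fit, 10 residual degrees of freedom) over the 13089 genes that averaged 1 FPKM or more in some group, with Benjamini-Hochberg adjustment across these genes. A gene was called at an adjusted p under 0.05, and with the 2-fold requirement when the log2 fold change was also at least 1 in size. Fold changes on this scale understate low genes. Ratios were tested by exact permutation. On simulated data for AMO1 BtzR, 199 of 200 genes changed by 1.5 log2 units were recovered. The changed genes were drawn above an expression floor in AMO1 WT. Smaller changes, like most of those of the members, were not simulated. All 5 members are named, with their values. Other genes are named where they are constitutive counterparts, gene neighbours, the 5 most alike by r, or up to 3 called genes with the largest change per list; PSME3 and POMP were named after their values were seen. Some listed genes are not reported here. The members and lists were chosen with earlier results of these data known. Alternatives were other pseudocounts, filters and scalings, a fit without trend, a replicate block, narrower sets of libraries, and each library left out in turn.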

Additional observations from a re-analysis of the deposited data

Results flagged for a closer look

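Changes with bortezomib resistance were unequal among the 4 lines for all 5 genes. In the moderated F test of limma, adjusted p was 1.90e-05 for PSMB8, 9.57e-07 for PSMB9, 0.0042 for PSMB10, 4.48e-05 for PSME1 and 9.91e-05 for PSME2. Over all tested genes 71.1% passed the same test. For PSMB10, PSME1 and PSME2 the lines went in opposite directions, with rises of 0.37 to 0.44 in AMO1 and log2 changes of -0.36 to -0.72 in RPMI. With 2 libraries per group, no group could be examined for outlying samples.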

How the results depend on the processing

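Of 403 alternative values for counts and ratios, 386 kept their direction and side of the threshold or, for counts, stayed within 1.5 times (21 counts moved within that limit). For single members 836 of 900 kept both, and no member that passed the test changed direction; causes were not tested. The falls of PSMB8, PSMB9, PSME1 and PSME2 in RPMI BtzR passed under every alternative run. In L363 BtzR the 1 member past the adjusted p became 0 without a filter, with TPM scaling and with any library left out (0 to 0). Against AMO1 WT, the 5 members in the labelled AMO1 CfzR became 3 to 4 with a library left out. Against L363 WT the 0 became 1 with a pseudocount of 0.1, 1 with TPM scaling and 2 with the compared libraries alone. The 1 member in L363 CfzR against L363 BtzR became 0 to 1. PSMB9 over PSMB6 passed with the AMO1 line left out (-1.09, exact permutation p = 0.00926) and, with a library left out, spanned -0.69 to -0.58, passing without L363 BtzR replicate 2 (-0.69, exact permutation p = 0.0478). PSMB10 over PSMB7 became 0.10 with the RPMI line left out.

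Changes of sign occurred only in differences that did not pass. Quantile normalization turned PSME1 in L363 BtzR to 0.0018, PSME2 in the labelled AMO1 CfzR against L363 WT to -0.022, PSME2 in L363 CfzR against L363 BtzR to -0.026 and the mean PSMB10 effect to 0.018. TPM scaling turned PSMB10 (-0.034) and PSME2 (-0.0011) in ARH77 BtzR and PSMB10 in L363 CfzR (0.0070). With a library left out, the ranges were -0.31 to 0.015 for PSMB8 in AMO1 BtzR, -0.14 to 0.16 for PSMB10 and -0.041 to 0.13 for PSME2 in ARH77 BtzR, -0.065 to 0.024 for PSMB10 in L363 CfzR, -0.077 to 0.12 for PSMB9 and -0.060 to 0.14 for PSME2 in the labelled AMO1 CfzR against L363 WT, -0.028 to 0.15 for PSME2 between the 2 drugs in L363, -0.061 to 0.032 for the mean PSMB10 effect, and -0.038 to 0.071 for PSMB8 in ARH77 WT.

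Replicate numbers are shared between groups, but nothing in the labels ties same-numbered libraries together. Their deviations from the group means correlated at -0.0055 in AMO1 BtzR and at 0.12 to 0.245 in the other comparisons. With the replicate block, 75 of 76 results kept their side, and the mean PSME2 effect passed (-0.13, adjusted p = 0.0308). It also passed with TPM scaling (0.0404), quantile normalization (0.029) and each of 5 single libraries left out (0.0109 to 0.0473), and the mean PSME1 effect passed without AMO1 WT replicate 1 (0.0216) or ARH77 WT replicate 1 (0.0361). Genes past the adjusted p in RPMI BtzR went from 7112 to 7398. With 2 libraries per group and unknown depth, small differences could not be resolved.
Over all tested genes, a pseudocount of 0.1 moved the number past both requirements from 1201 to 1919 in AMO1 BtzR, 270 to 580 in L363 BtzR, 1809 to 2722 in RPMI BtzR, 210 to 473 in ARH77 BtzR and 222 to 760 for the mean effect. With the compared libraries alone, genes past the adjusted p went from 1464 to 3194 in L363 BtzR and from 1778 to 227 in ARH77 BtzR.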

Other observations

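Genes beside the members on their chromosomes were also measured, taking the 3 nearest tested genes on each side in the RefSeq order. Genes that did not enter the tests were passed over. In AMO1 BtzR, most of the genes taken around PSME1 and PSME2 on chromosome 14 were called higher, beside 25.6% of all tested genes. DCAF11 (0.49, adjusted p = 0.00143), EMC9 (0.85, adjusted p = 2.46e-05), RNF31, a catalytic subunit of the linear ubiquitin ligase (0.93, adjusted p = 1.10e-06), IRF9 (1.62, adjusted p = 1.77e-06), REC8 (0.87, adjusted p = 1.55e-05) and CARMIL3 (0.72, adjusted p = 4.21e-05) rose beside the 2 PA28 genes, while PCK2 was at 0.65 (adjusted p = 0.329). In RPMI BtzR, EMC9 was at -0.29 (adjusted p = 0.0436), and DCAF11, RNF31 and IRF9 did not pass the test. Around PSMB10 on chromosome 16, calls in AMO1 BtzR went both ways. EDC4 (0.38, adjusted p = 0.0074) and PSKH1 (0.52, adjusted p = 0.00469) were higher, and LCAT (-0.60, adjusted p = 0.0342) and SLC12A4 (-0.49, adjusted p = 0.0215) lower.

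On chromosome 6, the class II chaperone genes HLA-DMB and HLA-DMA, next to PSMB9 among tested genes, moved in opposite directions in the 2 lines. In RPMI BtzR, HLA-DMA went from a mean of 16.9 FPKM to 1.44 FPKM (-2.88, adjusted p = 1.53e-09) and HLA-DMB from 2.92 to 0.06 FPKM (-1.89, adjusted p = 2.19e-10). In AMO1 BtzR the changes were 2.63 (adjusted p = 1.23e-08) and 3.96 (adjusted p = 3.33e-13). BRD2, the next tested gene after them, differed by 0.19 and 0.08 and did not pass in either line.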
